A study of Homo sapiens with 6 samples.

Results

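Acetylated lysine 27 of histone H3 (H3K27ac), which marks active promoters and enhancers, was mapped over the HOX genes in cell lines of T-ALL, an acute leukaemia of T-cell precursors. The members were 38 genes of the HOXA, HOXB, HOXC and HOXD clusters, chosen by gene family and not by their values, out of 19974 protein-coding genes on chromosomes 1 to 22 and X. All 38 matched the RefSeq annotation of GRCh38.p14, the build called hg38 in the submitters' processing notes. The groups were Jurkat cells with 2 H3K27ac libraries (replicates 1 and 2) and 6T-CEM cells with 1, both labelled as T-ALL cells. The 3 IgG controls were not analysed here. The series title names GNE-987, an inhibitor of BET bromodomain proteins, and its description speaks of cells given 10 nM for 24 h. Treatment is missing from the sample labels, and any library may come from treated or untreated cells. The labels also do not say whether the Jurkat replicates were separate cultures.

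HOX genes encode homeodomain transcription factors that set position along the body axis, and they lie in their clusters in an order that follows where they act. The KMT2A (MLL) complex keeps chosen HOX genes active, and Polycomb complexes silence the others by methylating the same lysine that H3K27ac occupies. In blood, HOXA and HOXB genes act in stem and progenitor cells, and a subset of T-ALL is defined by raised HOXA expression, whereas Jurkat is widely used as a model of TAL1-driven T-ALL.

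The values were peaks, stretches of enriched signal that the authors called in each library. For each peak they give a fold over the signal expected from background and a −log10 q, which is larger for a more significant call. On chromosomes 1 to 22 and X the Jurkat lists held 16159 peaks (replicate 1) and 32097 peaks (replicate 2), and the 6T-CEM list held 35154. Values below given as 3 numbers in a row follow this order of libraries. Sequencing depth is unknown, because a peak list carries no read counts. 6T-CEM had a single library, so its spread is unknown, and no test between the lines was run. The T-cell identity of the libraries was checked with 10 T-lineage marker genes, of which 9, 10 and 10 had a peak over the gene or within 5 kb. The exception was CD7 in Jurkat replicate 1. The B-lineage genes PAX5, EBF1, MS4A1 and CD22 had no peak in any library.

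Few HOX genes carried H3K27ac in Jurkat replicate 1 and in 6T-CEM, and more did in Jurkat replicate 2. The marked genes were mostly in HOXB and HOXC. A HOX gene was counted as marked when a peak lay over its body or within 5 kb. In Jurkat replicate 1, 7 of 38 HOX genes were marked, 18.4% (95% Clopper-Pearson interval 7.74 to 34.3), against 46.3% of all protein-coding genes. In Jurkat replicate 2, 13 of 38 were marked, 34.2% (19.6 to 51.4), against 47.5% of all genes, which lies within that interval. In 6T-CEM, 3 of 38 were marked, 7.89% (1.66 to 21.4), against 53.8% of all genes. The HOX share was below the share of all genes in each library, and it was lowest in the library with the most peaks. The intervals cover counting error only, and neighbouring HOX genes share peaks, so they are not independent.

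HOX genes are short, with a median length of 3785.5 bp against 24170.5 bp for all protein-coding genes. Among the 5658 protein-coding genes of at most 10 kb, 34.1%, 38.1% and 40.1% were marked. Of the 32 HOX genes of that size, 3, 8 and 2 were marked. The window also set the count: within 25 kb, 12, 23 and 6 HOX genes were marked, which in Jurkat replicate 2 was 60.5% against 58.6% of all genes. In the other libraries the 25 kb shares were 31.6% against 57.2% and 15.8% against 64.5%.

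**Figure D1:**
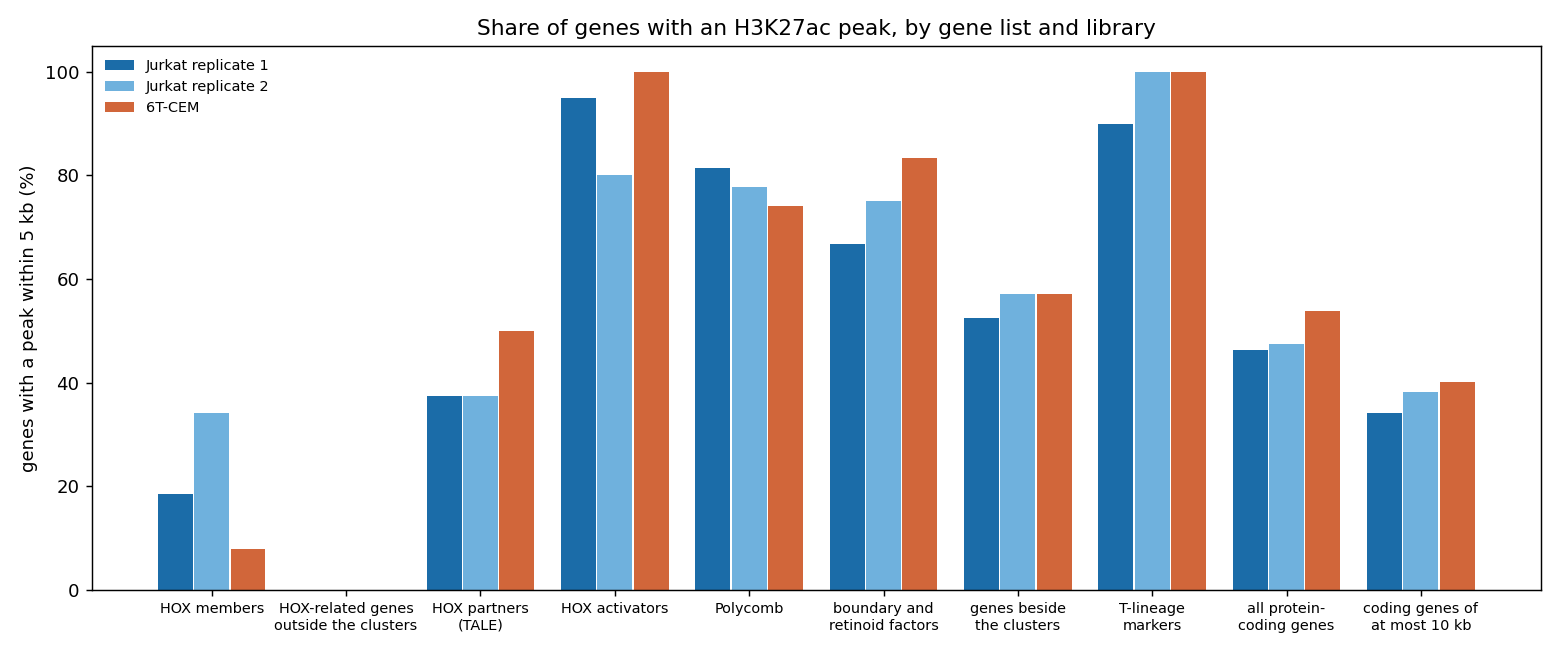
Bars give the percentage of genes with an H3K27ac peak over the gene or within 5 kb (vertical axis) for the HOX genes, 6 lists of related genes, T-lineage markers, all protein-coding genes and those of at most 10 kb, in each of the 3 libraries. The HOX bars (18.4%, 34.2% and 7.89%) lie below those of all protein-coding genes (46.3%, 47.5% and 53.8%), and the HOX-related genes outside the clusters are at 0 in every library.

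By line, the HOX genes fell into a few small sets. HOXB3 and HOXB4 were marked in all 3 libraries, 2 of 38, compared with 35.7% of all genes. HOXC4, HOXC5, HOXC6 and HOXC8 were marked in both Jurkat libraries and not in 6T-CEM, 4 of 38, where 2.53% of all genes had this pattern. HOXB2 alone was marked in 6T-CEM and in neither Jurkat library, a pattern of 6.94% of all genes. HOXA2 was marked in Jurkat replicate 1 alone (2.77% of all genes). HOXA3, HOXA6, HOXA7, HOXB7, HOXB8, HOXC10 and HOXC11 were marked in Jurkat replicate 2 alone (3.37%). No HOX gene joined 6T-CEM to a single Jurkat library, 0 of 38 for replicate 1 (5.25% of all genes) and 0 of 38 for replicate 2 (5.92%). The other 23 had no peak in any library, against 37.5% of all genes and 52.1% of those of at most 10 kb. The 4 HOXC genes do not count as 4 separate observations, since 1 peak lay within 5 kb of all of them.

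The genes are numbered by paralogue group from the anterior end of the body axis, and few of the posterior groups were marked. The counts by class stand beside 46.3%, 47.5% and 53.8% of all protein-coding genes marked. Of the 7 anterior genes (groups 1 to 3), 2 were marked in each library. Of the 15 central genes (groups 4 to 8), 5, 9 and 1 were marked. This class was above the share of all genes in Jurkat replicate 2 and below it in the other libraries. In replicate 2, HOXA6 and HOXA7 shared a peak, as did HOXB7 and HOXB8, and also HOXC4, HOXC5, HOXC6 and HOXC8. Over gene bodies alone, HOXB4, HOXB7, HOXC4, HOXC5 and HOXC6 stayed marked there, a share below the 41.7% of all genes. Of the 16 posterior genes (groups 9 to 13), 0, 2 and 0 were marked, HOXC10 and HOXC11 being the 2. HOXA9 and HOXA10, the posterior HOXA genes best known from acute leukaemia, had no peak in any library.

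**Figure D2:**
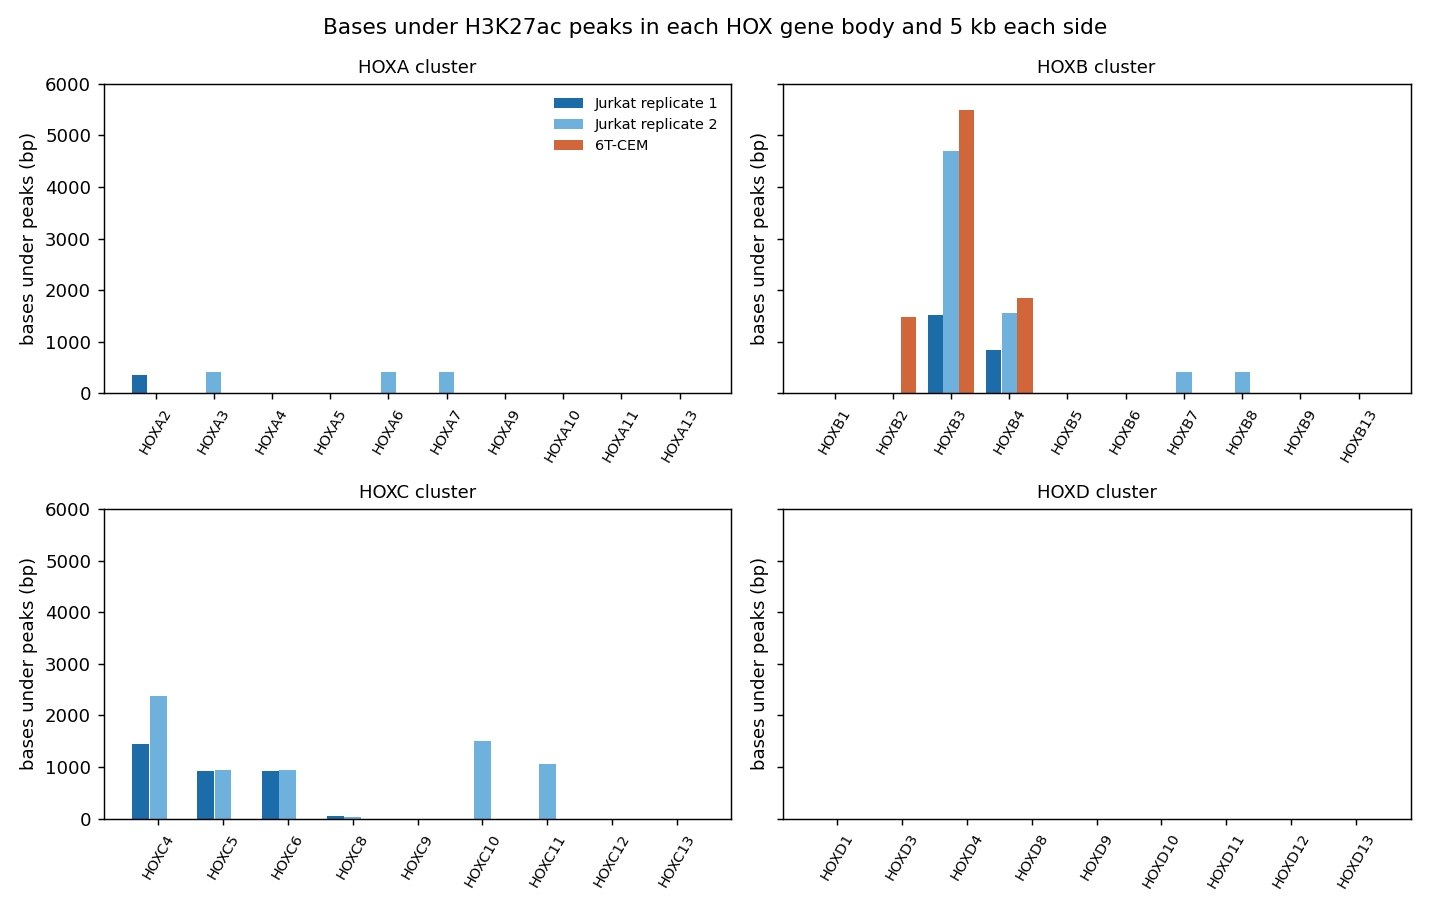
Each panel is 1 HOX cluster, with genes in order of paralogue group along the horizontal axis and the bases under H3K27ac peaks within the gene body and 5 kb each side (bp) on the vertical axis. Bars are single libraries, and HOXB3 reaches 5494 bp in 6T-CEM while all 9 HOXD genes are at 0.

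HOXC was marked in Jurkat, in either library, while 6T-CEM had nothing there. The cluster, chromosome 12 from 53938831 to 54056030, held 2 peaks in Jurkat replicate 1 covering 1448 bp, 5 peaks in Jurkat replicate 2 covering 4319 bp, and none in 6T-CEM. No 6T-CEM peak lay within 100 kb or within 200 kb of the cluster either. Around HOXC the 6T-CEM list was blank for 582.0 kb, from a peak at ATP5MC2, a subunit gene of the mitochondrial ATP synthase, to a peak at CBX5, which encodes a heterochromatin protein. Of all gaps between neighbouring peaks in 6T-CEM, 3.04% were at least as long. This share counts gaps and not bases. Long gaps take up more of the genome, so it does not give how rare such a position is. Jurkat replicates 1 and 2 had peaks at the same flanking genes, and the HOXC peaks lay between them.

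Of the Jurkat HOXC peaks, 1 lay just inside the shared start of HOXC4, HOXC5 and HOXC6, central genes that pattern the trunk. HOXC4 is also expressed in lymphocytes. In Jurkat replicate 1 it ran from 54017725 to 54018641 with a fold enrichment of 3.52, and in replicate 2 from 54017741 to 54018689 with a fold of 4.04. The libraries shared 901 bp of it, and their summits, the points of highest signal, were 25 bp apart. The −log10 q was 6.43 and 12.8. Another Jurkat peak lay over the far end of HOXC4, from 54052760 to 54053290 in replicate 1 (fold 4.25) and from 54052949 to 54054367 in replicate 2 (fold 3.69), with summits 19 bp apart. Both positions were thus called separately in both Jurkat libraries with close summits and modest folds. HOXC8, a trunk-patterning gene next to them, was counted only through the edge of its window, with 45 bp and 29 bp covered.

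The listed start window nearest to the Jurkat peak at the shared HOXC start is that of HOXC4 and HOXC5, chr12:54016638-54016937 on the plus strand. It spans the 250 bases before to 50 after the start, from RefSeq (GRCh38.p14). It ends 788 bp before that peak in replicate 1 and 804 bp before it in replicate 2. It is shown with CpG dinucleotides in capitals, together with the other start windows of HOX genes and HOX cluster RNAs that lay under a peak or within 1 kb of one. These are HOXB-AS1, chr17:48544101-48544400 on the plus strand, under a 6T-CEM peak, and 1 of 7 listed starts of HOXA3, chr7:27150901-27151200 on the minus strand, 133 bp from a Jurkat replicate 2 peak.
HOXC4 and HOXC5: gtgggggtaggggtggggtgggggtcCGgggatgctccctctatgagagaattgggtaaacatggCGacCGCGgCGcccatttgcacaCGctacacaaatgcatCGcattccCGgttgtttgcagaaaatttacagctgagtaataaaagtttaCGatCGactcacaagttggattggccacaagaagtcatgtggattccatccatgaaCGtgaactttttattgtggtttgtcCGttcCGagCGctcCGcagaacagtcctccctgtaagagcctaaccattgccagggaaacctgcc
HOXB-AS1: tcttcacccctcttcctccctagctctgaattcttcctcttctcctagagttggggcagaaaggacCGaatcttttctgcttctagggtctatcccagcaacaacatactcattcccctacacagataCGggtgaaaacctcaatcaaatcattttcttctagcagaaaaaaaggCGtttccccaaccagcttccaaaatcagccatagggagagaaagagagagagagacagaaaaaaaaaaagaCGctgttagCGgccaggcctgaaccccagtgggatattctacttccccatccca
HOXA3: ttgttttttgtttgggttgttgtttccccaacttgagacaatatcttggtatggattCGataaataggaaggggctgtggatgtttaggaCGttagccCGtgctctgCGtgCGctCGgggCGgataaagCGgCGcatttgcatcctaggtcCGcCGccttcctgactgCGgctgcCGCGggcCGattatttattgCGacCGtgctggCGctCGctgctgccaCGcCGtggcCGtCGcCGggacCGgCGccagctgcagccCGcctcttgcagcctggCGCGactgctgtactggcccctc

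The windows differed in base composition, which is the part in capitals. The HOXA3 window held 29 CpGs and 60.7% G or C, the HOXC4 and HOXC5 window 15 CpGs and 51.7%, and the HOXB-AS1 window 5 CpGs and 46.7%. The median over 34943 listed start windows was 14 CpGs. The letters of 4 motifs were searched on both strands. The RUNX motif TGTGGT had 1 match in the HOXC4 and HOXC5 window, and 13.1% of all start windows held it. The CCAAT box had 2 matches there, none overlapping the RUNX match, and 34.6% of all windows held it. The TATA box, searched as TATAAA, had no match in the 3 windows and was held by 11.6% of all. The PBX-HOX motif, searched as TGATNNAT, had no match either and was held by 7.42%. The HOXB-AS1 and HOXA3 windows had no match to any of the 4. Start windows were listed for 20 of the 38 HOX genes, so no share over the HOX genes was read.

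**Figure D3:**
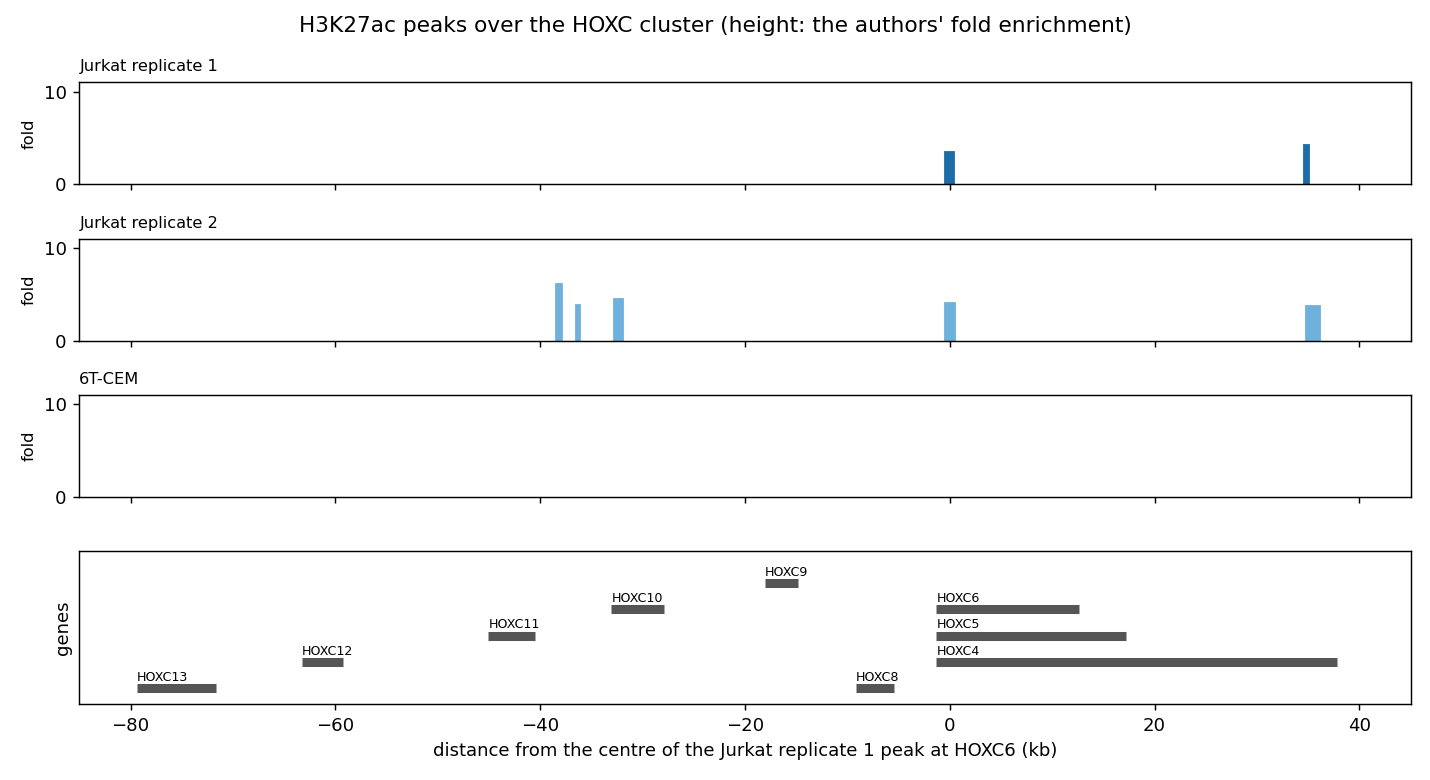
Boxes are H3K27ac peaks over the HOXC cluster, placed by distance (kb) from the centre of the Jurkat replicate 1 peak at HOXC6, with the authors' fold enrichment as height and gene bodies drawn at the bottom. Peaks at 2 positions recur in both Jurkat libraries, 3 further peaks lie near HOXC10 in replicate 2, and 6T-CEM has none.

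Near HOXC10 and HOXC11, posterior genes of the lower trunk and hind limb, only Jurkat replicate 2 had peaks. HOXC10 had 0 bp, 1499 bp and 0 bp covered within 5 kb, and HOXC11 had 0 bp, 1054 bp and 0 bp. The replicate 2 peaks had folds of 6.16, 3.89 and 4.54, and the first of them lay between the genes with a fold above 82.7% of its list. HOXC9, HOXC12 and HOXC13, the last known from hair and nails, had no covered bases. The HOXC10 region therefore differed between Jurkat libraries as much as between lines.

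HOXB was the cluster marked in both lines. Its genes HOXB3 and HOXB4 are known from haematopoietic stem cells, where HOXB4 drives expansion. HOXB3 had 1513 bp covered in Jurkat replicate 1, 4704 bp in Jurkat replicate 2 and 5494 bp in 6T-CEM, over 2, 6 and 7 peaks, and was the HOX gene with the most covered bases in each. HOXB4 had 849 bp, 1563 bp and 1857 bp over 1, 2 and 3 peaks. HOXB4 lies within the annotated span of HOXB3, so these values share bases. The 6T-CEM value for HOXB3 includes 1484 bp of the HOXB2 and HOXB-AS1 peaks, which lie within 5 kb of it. Over the HOXB3 body alone the values were 1513 bp, 4704 bp and 4010 bp, so 6T-CEM lay between the Jurkat libraries. Over the HOXB4 body they were 767 bp, 799 bp and 1112 bp, with 6T-CEM above both. With 5 kb each side, 18.9%, 7.17% and 7.38% of all protein-coding genes had more covered bases than HOXB3.

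At HOXB4 the libraries met at 1 position. The Jurkat replicate 1 peak, from 48577584 to 48578432 (fold 4.10), and the 6T-CEM peak, from 48577216 to 48578327 (fold 5.89), shared 744 bp with summits 69 bp apart, close to the upper end of HOXB4 at 48578350. Jurkat replicate 2 had peaks from 48577134 to 48577423 (fold 5.22) and from 48577842 to 48579114 (fold 4.47), each overlapping the 6T-CEM peak, with summits 936 and 791 bp from its summit. The replicate 1 peak rests on a −log10 q of 3.37, and at a −log10 q of at least 5 no HOXB peak remained in replicate 1. With each list shortened to 16159 peaks by significance, HOXB4 had no peak in replicate 2, and HOXB3 was left as the single HOX gene marked in all libraries.

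Inside HOXB3 the lines shared part of their peaks. A Jurkat pair lay from 48564147 to 48564810 in replicate 1 (fold 3.46) and from 48564215 to 48565376 in replicate 2 (fold 5.44), and no 6T-CEM peak overlapped it. A second pair joined Jurkat replicate 2, from 48560709 to 48561285 (fold 5.24), and 6T-CEM, from 48560561 to 48562419 (fold 3.58), over HOXB-AS2, an antisense RNA gene. The latter, of 1859 bp, was the widest peak inside any HOX cluster, below the 95th percentile of 6T-CEM peak widths (2635 bp). Peaks at 48571175 to 48571547 and 48572825 to 48573196 were in 6T-CEM alone.

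HOXB2, a hindbrain-patterning gene, had 0 bp, 0 bp and 1484 bp. Its 6T-CEM peaks lay from 48544077 to 48544696 (fold 6.41) and from 48546393 to 48547256 (fold 6.05), with −log10 q of 7.89 and 13.3. The first lay over HOXB2 and over the start window of HOXB-AS1 printed above, with its summit 149 bp from that start, and the second over HOXB-AS1. With each list shortened to its 16159 most significant peaks, HOXB2 was still the single HOX gene marked in 6T-CEM alone. Within 25 kb it was marked in all 3 libraries, and HOXB1, its anterior neighbour, took that place.

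HOXB7 and HOXB8, central genes of which HOXB8 can hold myeloid progenitors in an immature state, had 0 bp, 419 bp and 0 bp each, from a single Jurkat replicate 2 peak over HOXB7 (fold 5.12). HOXB5, HOXB6, HOXB9 and HOXB13, the last a prostate-lineage gene, had no covered bases. Over the whole cluster, chromosome 17 from 48528526 to 48728750, peaks covered 1513 bp, 5123 bp and 5494 bp, or 0.756%, 2.56% and 2.74% of its length.

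**Figure D4:**
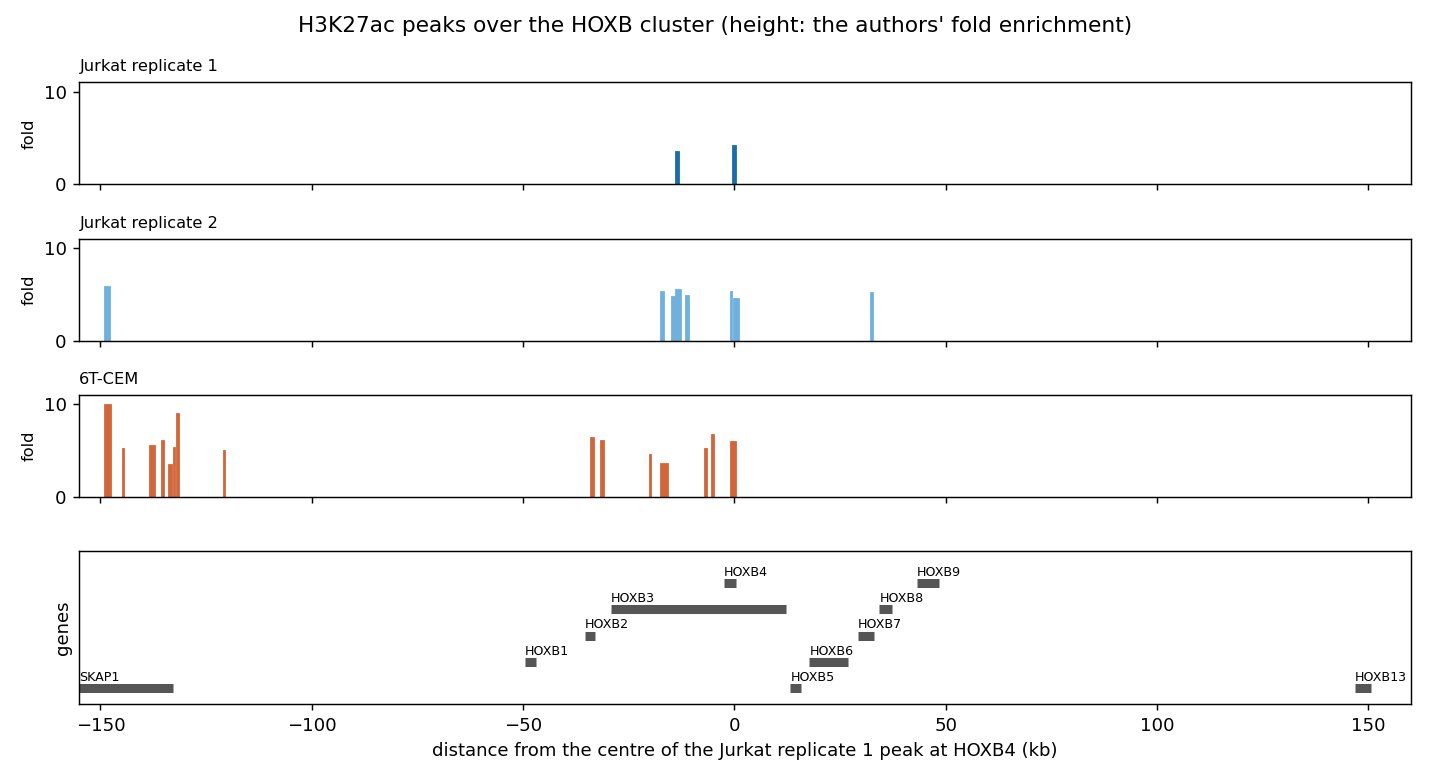
Boxes are H3K27ac peaks over the HOXB cluster and its SKAP1 side, placed by distance (kb) from the centre of the Jurkat replicate 1 peak at HOXB4, with the authors' fold enrichment as height and gene bodies at the bottom. Peaks of all libraries meet at 0 kb, HOXB2 carries peaks in 6T-CEM alone, and the 6T-CEM peaks beside and within SKAP1 reach a fold of 9.92.

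With 100 kb added on each side, the HOXB region held 1513 bp, 6274 bp and 10414 bp under peaks. On the log2 scale, with 500 bp added to each value, 6T-CEM exceeded the Jurkat mean by 1.31, against a median of 0.40 over 16990 gene windows with the same flanks. The Jurkat libraries themselves differed by −1.75 (replicate 1 over 2), more than the lines did. The added 6T-CEM bases lay towards SKAP1, which encodes an adaptor of T-cell receptor signalling. There 6T-CEM had 8 peaks, Jurkat replicate 2 had 1 and Jurkat replicate 1 had 0. That 1 was the shared peak over SKAP1, from 48429171 to 48430321 in Jurkat replicate 2 (fold 5.83) and from 48429134 to 48430448 in 6T-CEM (fold 9.92), with summits 10 bp apart. Its 6T-CEM fold exceeded 95.1% of that list and was the highest of all peaks in or within 100 kb of a HOX cluster. Over SKAP1 itself and 5 kb each side, 0, 1 and 11 peaks covered 0 bp, 1151 bp and 6374 bp.

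HOXA, the cluster raised in HOXA-type T-ALL, was nearly bare. Between HOXA2 and HOXA13, chromosome 7 from 27100354 to 27200091, Jurkat replicate 1 had no peak, Jurkat replicate 2 had 1 of 408 bp and 6T-CEM had none. The replicate 2 peak, from 27150361 to 27150768 (fold 3.59, −log10 q 10.4), lay over HOXA3, which is needed to form the thymus, and over HOXA-AS3. It also lay within 5 kb of HOXA6 and HOXA7, so these 3 genes had 0 bp, 408 bp and 0 bp each. HOXA2, a gene of the second pharyngeal arch, had 356 bp in Jurkat replicate 1 from a peak over HOTAIRM1, a myeloid-linked non-coding RNA gene (fold 4.24, −log10 q 3.37), and 0 bp elsewhere.

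HOXA4, HOXA5, HOXA9, HOXA10, HOXA11 and HOXA13 were uncovered throughout. The blank stretch around HOXA in 6T-CEM ran for 1572 kb, from a peak at SNX10 to a peak at JAZF1. By number, 1.01% of 6T-CEM gaps were as long, which again does not give how rare such a position is. Both Jurkat libraries had a peak at HIBADH inside that blank stretch, 462.4 and 462.1 kb beyond HOXA13. SKAP2, a paralogue of SKAP1, which lies beside HOXA, had no peak within 5 kb in any library.

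HOXD carried no peak at all. HOXD1, HOXD3, HOXD4, HOXD8, HOXD9, HOXD10, HOXD11, HOXD12 and HOXD13, genes known for limb and skeletal patterning, had 0 bp in every library over chromosome 2 from 176087487 to 176190907. The nearest peaks belonged to the flanking genes. MTX2, which encodes a mitochondrial import protein, had a peak in each library with folds of 7.58, 2.36 and 3.42, and the summits of Jurkat replicate 2 and 6T-CEM fell on the same base, 176269735. LNPK, which encodes a protein of the endoplasmic reticulum, had a peak in Jurkat replicate 1 and in 6T-CEM, the latter with a fold of 2.69, with summits 7 bp apart.

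The blank stretch over HOXD was 266.7 kb in Jurkat replicate 1, 1088 kb in replicate 2 and 267.5 kb in 6T-CEM. With the flanks, 1390 bp, 520 bp and 1239 bp were covered. The log2 ratio of the lines was 0.26, smaller than the Jurkat difference of 0.89 and below zero in several alternatives.

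The peaks inside the clusters were near the medians of their lists in width, and those of Jurkat replicate 1 were low in fold. Their median widths were 756.5, 646 and 620 bp, against 762, 583 and 647 bp for all peaks. In Jurkat replicate 1, none of the 4 exceeded the median fold of its list, and in the other libraries 9 of 13 and 5 of 7 did. Folds ran from 3.46 to 4.25, from 3.59 to 6.16 and from 3.58 to 6.72. All 4 replicate 1 peaks overlapped a replicate 2 peak and 1 overlapped a 6T-CEM peak. Of the 13 replicate 2 peaks, 4 overlapped replicate 1 and 3 overlapped 6T-CEM. Of the 7 in 6T-CEM, 1 and 2 overlapped replicates 1 and 2. How often peaks overlap between these lists over the whole genome was not read, and the lists differ in length. These counts therefore do not show whether HOX peaks overlap more or less than others.

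Most summits lay more than 1 kb from the outer annotated ends of HOX genes, with both ends of a gene counted alike. Starts inside a gene were not counted, so these distances do not give the distance to promoters. The Jurkat replicate 2 summit in HOXA3 lay 1997 bp from an outer end and 364 bp from a listed HOXA3 start. The same share over all peaks was not read. The distance from the summit to the nearest end of a HOX gene had a median of 2099 bp over the 4 peaks of Jurkat replicate 1, 2550 bp over the 13 of replicate 2 and 2511 bp over the 7 of 6T-CEM. Within 1 kb of an end were 1, 3 and 2 summits. Most peaks lay over a HOX gene body, 4 of 4, 11 of 13 and 6 of 7.

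Of 23 non-coding RNA genes in or beside the clusters, 3, 6 and 3 had a peak over the gene or within 5 kb. For all protein-coding genes the shares were 46.3%, 47.5% and 53.8%. HOXB-AS2 and MIR10A were marked in all 3 libraries. Over the RNA gene itself, 1, 3 and 2 had a peak, against 41.3%, 41.7% and 47.9% of protein-coding genes. Some of the RNA genes are very short, the microRNA genes above all. The RNA genes with a peak over them were HOTAIRM1 in Jurkat replicate 1, HOXA-AS3, HOXB-AS2 and HOXC-AS3 in Jurkat replicate 2, and HOXB-AS1 and HOXB-AS2 in 6T-CEM. HOTTIP and HOTAIR, non-coding RNAs with reported roles in chromatin regulation, had none over them. None of the 6 microRNA genes, MIR10A, MIR10B, MIR196A1, MIR196A2, MIR196B and MIR615, lay under a peak. MIR10A was nearest, 1406 bp, 724 bp and 1511 bp from the HOXB4 peaks. MIR196B was 72884, 18712 and 696269 bp from any peak.

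The HOX cluster microRNAs are shown because HOX messages are among their known targets, with the seed (bases 2 to 8) in capitals, from RefSeq (GRCh38.p14).
hsa-miR-10a-5p: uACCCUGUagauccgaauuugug
hsa-miR-196a-5p: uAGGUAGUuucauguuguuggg
hsa-miR-196b-5p: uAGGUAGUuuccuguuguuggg
The miR-196 forms from the HOXA, HOXB and HOXC clusters share the seed AGGUAGU, and miR-10a, beside HOXB4, has the seed ACCCUGU.

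Among genes that work with or on the HOX genes, most of those for activators and Polycomb proteins were marked. The counts below stand beside 46.3%, 47.5% and 53.8% of all protein-coding genes, and no difference between lists was tested. Of all protein-coding genes, 35.7% were marked in all 3 libraries. Of 8 genes for TALE homeodomain partners, which bind DNA together with HOX proteins, 3, 3 and 4 were marked. PBX2, PBX4 and PKNOX1 were marked in all 3. PBX3 was marked in 6T-CEM alone, with 2898 bp. MEIS1, MEIS2, MEIS3 and PKNOX2 had no peak in any library. The 13 HOX-related homeobox genes outside the clusters, among them EVX1, EVX2, CDX1, CDX2, CDX4 and MNX1, had none either.

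Of 20 genes tied to HOX activation, 19, 16 and 20 were marked, and 16 were marked in all libraries. KMT2A had 1567 bp, 573 bp and 6106 bp, and MEN1, which encodes its partner menin, had 882 bp, 1766 bp and 4487 bp. DOT1L, the H3K79 methyltransferase gene, had 5463 bp, 16458 bp and 11402 bp. MLLT3, a DOT1L-linked fusion partner of KMT2A, was marked in 6T-CEM alone, with 1009 bp. KDM6B, which encodes a demethylase of H3K27, had 7692 bp, 5546 bp and 4862 bp.

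Of 27 Polycomb genes, 22, 21 and 20 were marked, 15 of them in all libraries. EZH2, the H3K27 methyltransferase gene, had 2209 bp, 2566 bp and 2256 bp, a narrow range. EZH1, its relative, had 906 bp, 383 bp and 0 bp. RBBP7, a histone-binding subunit gene, had 509 bp, 303 bp and 0 bp. RING1, an H2A ubiquitin ligase gene, had 297 bp, 542 bp and 0 bp, and CBX8, which encodes a reader of methylated H3K27, had 546 bp, 975 bp and 0 bp. The RING1 paralogue RNF2 had 0 bp, 0 bp and 994 bp. In this list 4 of 27 genes were marked in both Jurkat libraries alone, a pattern of 2.53% of all genes. Marked in 6T-CEM alone was 1 of 27, a pattern of 6.94% of all genes. A difference between the lines was not tested.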

How the data were processed

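Peaks of H3K27ac were analysed in the Jurkat and 6T-CEM libraries. The tools named in the submitters' processing notes are Bowtie2 2.2.5 and MACS2 2.2.7, with the build hg38, and their options are not given in the sources used here. Each deposited list belongs to 1 library. For each peak the authors give a fold, the ratio of signal over the background that the caller expected, and the significance as −log10 of the p-value and of the q-value. A score and the summit's offset are also deposited. None was recalculated, and the weakest deposited peaks had a −log10 q of 2.01, 2.00 and 2.01. The series description names CUT&Tag, while the protocol in the labels describes sonicated nuclei and antibody isolation.

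Peaks on chromosomes 1 to 22 and X were set against RefSeq gene positions (GRCh38.p14) with at least 1 shared base, over gene bodies plus 5 kb and over clusters plus 100 kb. Bases under peaks were summed without scaling to depth, which is unknown, and 500 bp were added before log2 ratios. No test was run, since 6T-CEM has 1 library. Clopper-Pearson intervals are at 95%. HOX genes with a peak were all named with their values. Genes of the other lists were given by counts, and those marked in 1 line only by values, up to a limit per list. Other list genes were named as examples after their values were seen. The HOX genes and lists were chosen with earlier results of these data known. Of the HOXA cluster and of the partner list, 1 gene each is not reported here. Alternatives were peaks with −log10 q of at least 5, each list shortened to its 16159 most significant peaks, gene bodies alone, 25 kb windows, 200 shared bases, clusters alone or with 200 kb, 2000 bp added, width times fold, and each Jurkat library left out. The counting was tested on simulated data, where 5000 of 5000 windows were recovered. The software was Python 3.11.15 with pandas 2.3.3, NumPy 2.4.6 and SciPy 1.17.1, and figures were drawn in matplotlib 3.10.9.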

Additional observations from a re-analysis of the deposited data

How the results depend on the processing

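The 4 HOXC genes marked in both Jurkat libraries and not in 6T-CEM remained 4 at a −log10 q of at least 5 and at equal list length. The count was 3, without HOXC8, over gene bodies alone or with 200 shared bases, and 6 within 25 kb, with HOXA3 and HOXC9 added. It ranged from 5 to 11 when a Jurkat library was left out, 11 being the count without replicate 1. The count of HOX genes marked in both lines, 2, was 0 at a −log10 q of at least 5, 1 (HOXB3) at equal list length and 5 within 25 kb, and stayed 2 without either Jurkat library. At a −log10 q of at least 5, 4 HOX genes had a peak in Jurkat replicate 1, 10.5% against 40.0% of all genes. Over gene bodies alone, 8 had one in replicate 2, 21.1% against 41.7%. Within 25 kb 6T-CEM had 6 such genes, 15.8% against 64.5% of all genes. Jurkat had 12 in replicate 1 (31.6% against 57.2%) and 23 in replicate 2 (60.5% against 58.6%). A wider window or a stricter limit changes these counts by construction. HOXB kept a log2 ratio above zero in all alternatives, against 1.31 in the main setting. It was lowest, 0.65, for the cluster without flanks, and was 0.69 to 2.44 with a Jurkat library left out. The main-setting median over gene windows was itself above zero, at 0.40. HOXD changed sign, with −0.21 at equal list length, −0.13 by width times fold, and −0.12 to 0.77 with a Jurkat library left out, −0.12 being the value without replicate 2. The cause was not tested. HOXA and HOXC, and HOXD without flanks, gave no ratio because a group had 0 bp. The start-window alternative was not run, as 20 of 38 HOX genes had an entry. No paired analysis was possible because 6T-CEM has 1 library.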

Other observations

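Genes for boundary and retinoid factors, which shape and switch HOX clusters in embryos, numbered 12. Of these, 8 and 9 had a peak over the gene or within 5 kb in Jurkat replicates 1 and 2, and 10 in 6T-CEM, where 46.3%, 47.5% and 53.8% of all protein-coding genes had one. Values follow this order. CTCF, the boundary factor gene, had 3241 bp, 3990 bp and 8710 bp under peaks. RARA, a retinoic acid receptor gene, had 2048 bp, 17308 bp and 29978 bp, and RXRA, its partner, 3643 bp, 24698 bp and 21043 bp, so the Jurkat libraries differed widely and replicate 1 was low for both. RARB was marked in 6T-CEM alone, with 314 bp, and CYP26A1, which encodes an enzyme that degrades retinoic acid, had no peak in any library.

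Beyond the flanks of HOXC, NFE2, an erythroid and megakaryocytic factor gene, had 2008 bp, 6636 bp and 10932 bp. GPR84, a receptor gene of myeloid cells that lies nearby, had 1476 bp, 3022 bp and 8016 bp. 6T-CEM had the most covered bases at NFE2 and GPR84 while its HOXC cluster had none. Its whole list also covered the most, 34.3 Mb, against 16.2 Mb and 27.6 Mb in Jurkat replicates 1 and 2. Of the 21 listed genes beside the HOX clusters, 11, 12 and 12 were marked, against 46.3%, 47.5% and 53.8% of all protein-coding genes. At CBX5, nearer to HOXC, Jurkat replicate 1 had the most, with values of 3638 bp, 2999 bp and 3345 bp.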
